A study of Mus musculus with 4 samples.

Results

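The 32 genes described here make, sense, move, store and export cholesterol. They were chosen by symbol, with no threshold on a measured value but with earlier results of these data known. Each of the 32 was found among the 32285 genes of every count matrix. They comprise 18 enzymes of sterol synthesis, the transcription factor genes Srebf1 and Srebf2 with their partners Scap, Insig1 and Insig2, and the efflux and turnover genes Abca1, Abcg1 and Mylip. The others are the sterol carrier Stard4, the lysosomal genes Npc1, Npc2 and Gpr155, the esterifying enzyme Soat1, and Ggps1, which makes an isoprenoid that branches off the same pathway. For the comparison asked of these genes, the 18 enzymes with Insig1 and Stard4 formed a list of 20 SREBP2 targets, and Abca1, Abcg1 and Mylip formed the list of 3 LXR efflux genes.

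A cell that is short of sterol moves SREBP2 from the endoplasmic reticulum to the nucleus, where it switches on the genes of sterol synthesis and uptake. Insig proteins hold SREBP2 and its escort Scap back when sterol is plentiful. Surplus cholesterol is turned into oxysterols, which activate the nuclear receptors LXR alpha and LXR beta. These switch on the exporters Abca1 and Abcg1, and Mylip, a ubiquitin ligase that marks lipoprotein receptors for breakdown. In a fatty liver, macrophages take up lipid and dying cells, so the balance of the 2 programmes is often read in them.

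Droplet single-cell RNA sequencing (10x Genomics) had been run on cells of the liver from male Cyr61fl/fl mice aged 24 weeks that had been fed a NASH diet, which brings on fatty liver with inflammation, for 12 weeks. There were 2 libraries labelled Control and 2 labelled Cyr61 KO, all on the floxed strain, and the labels name neither the deleting agent nor the cells in which Cyr61 was removed. The tissue had been frozen in serum with DMSO, thawed, digested and cleared of dead cells on a column. The labels do not say that each library is a separate animal, so p-values measure the spread between these libraries alone, which may be technical.

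Cyr61, a secreted matrix protein listed as Ccn1, had 183, 146, 0 and 12 UMIs (unique molecular identifiers, each 1 captured transcript) in the kept cells of Control 1, Control 2, KO 1 and KO 2. Its level was 22.4, 7.16, 0 and 0.687 CPM, a gene's UMIs scaled to a common library total, and the 0 in KO 1 allows up to 0.175 CPM. The gate for stromal cells held 219, 41, 0 and 0 cells and 74, 72, 0 and 0 of these UMIs, and the monocyte and macrophage gate held no Ccn1 UMI in any library. The KO libraries thus had no gated stromal cell, and their Ccn1 count was lower outside that gate too. Deletion within a cell was not measured.

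The libraries held 4852 to 7253 barcodes and 8290677 to 20537236 UMIs, and 4718 to 7157 cells were kept, with medians of 1225, 2241, 1913 and 2869 UMIs. Control 1 was the shallowest. Pairs of libraries shared 6 to 22 barcodes. Cells were assigned to gates by UMIs of at least 2 different marker genes, none of them among the 32, and 5.62 to 7.98% of cells that passed several gates were left out. A further 11.7 to 30.2% passed no gate, most in Control 1. In each comparison, UMIs were summed per library and gate and tested with edgeR's quasi-likelihood test over every gene with enough counts. A gene was called at a Benjamini-Hochberg adjusted p below 0.05. Values are given in the order Control 1, Control 2, KO 1, KO 2, as CPM scaled by edgeR's TMM factors unless called plain, log2 changes are KO over Control with their standard error (SE), and n = 2 libraries per group.

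2 promoters illustrate the 2 programmes. Those of Hmgcs1 and Abca1 are shown because they hold a match to the motif of the factor that drives their programme. They are RefSeq sequences (GRCm38.p6) of the 250 bases before the start site, 5′ to 3′ on the gene's strand, with the match in capitals. The first lies at chr13:119690101-119690350 on the plus strand and the second at chr4:53159896-53160145 on the minus strand.
Hmgcs1: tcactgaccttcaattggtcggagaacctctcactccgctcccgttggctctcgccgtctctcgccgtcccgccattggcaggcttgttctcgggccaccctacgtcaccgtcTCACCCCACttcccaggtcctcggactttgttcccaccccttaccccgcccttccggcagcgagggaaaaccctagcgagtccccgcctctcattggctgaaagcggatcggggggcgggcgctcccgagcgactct
Abca1: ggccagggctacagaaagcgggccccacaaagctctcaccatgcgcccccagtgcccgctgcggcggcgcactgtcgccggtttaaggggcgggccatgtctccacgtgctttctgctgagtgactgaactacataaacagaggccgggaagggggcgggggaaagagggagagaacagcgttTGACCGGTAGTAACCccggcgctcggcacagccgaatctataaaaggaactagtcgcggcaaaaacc
The capitals in Hmgcs1 are a sterol regulatory element, searched as TCACNCCAC on both strands, and those in Abca1 are an LXR response element read on the opposite strand, searched as GGTNA, then any 5 bases, then GGTCA, on both strands. A promoter was matched for 26 of the 32 genes. The first motif was in 1 of 16 SREBP2 targets, Hmgcs1, against 1.05% of all 32851 promoters of this length, and Idi1, the target called below, had no match to it. The CCAAT box, searched as CCAAT on both strands, is bound by a partner of SREBP2. It was in 15 of the 16 and in 22 of all 26 matched genes, against 33.8% of all promoters. A gene counted if any of its start sites matched, while the shares are over single promoters. The LXR motif was in Abca1 and in 1 of 3 start sites of Srebf1, which encodes SREBP1, against 0.177% of all promoters. A match is a description of letters and shows no binding.

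In the monocyte and macrophage gate, Idi1 of the sterol synthesis pathway was higher in KO and the exporter Abca1 was lower. These were the 2 calls among the 18 members with enough counts, 1 in each direction. Of 6439 genes tested there, 0.233% were called higher and 1.4% lower. The gate held 342, 371, 218 and 120 cells, with medians of 1401, 2099, 3166.5 and 4899 UMIs. Each of its 12 markers had UMIs. The KO cells were fewer and deeper. DESeq2, the other count test tried, called 0 members in this or any other gate, and it gave Idi1 no adjusted p.

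Idi1 (ENSMUSG00000058258, chromosome 13, 8885501 to 8892451, GRCm38) encodes the isomerase that sets isopentenyl diphosphate in balance with dimethylallyl diphosphate. It stood at 3.32, 8.48, 32.5 and 27.2 CPM, from 2, 10, 26 and 17 UMIs. Both KO libraries lay above both Control libraries, on few UMIs, as in 20.4% of all genes tested. With so few UMIs in Control, Idi1 passes the filter on low counts more readily through KO, where it is high. This order is therefore not support. The log2 change was 2.15 ± 0.475 (SE, edgeR adjusted p = 0.0257). With no filter on low counts it was 2.17 (edgeR adjusted p = 0.000372). The call was lost without KO 1 (log2 2.05, edgeR adjusted p = 0.397) and when a gate took 3 markers (log2 1.94, edgeR adjusted p = 0.172).

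The neighbouring enzymes named here also had both KO libraries above both Control libraries, as in 20.4% of all genes tested, but were not called. They are named for their large change. A gene of low counts also passes the filter more readily through the group in which it is high, so this order is not support. Hmgcs1, the cytosolic HMG-CoA synthase that opens the pathway, stood at 9.95, 14.4, 25 and 43.2 CPM (log2 1.37 ± 0.417, edgeR adjusted p = 0.144). Fdps, which makes farnesyl diphosphate, stood at 8.29, 12.7, 25 and 35.2 CPM (log2 1.40 ± 0.423, edgeR adjusted p = 0.139). For both genes the groups did not overlap, and for Hmgcs1 the KO libraries lay farther from each other than KO 1 did from Control 2. Msmo1, a methylsterol oxidase, stood at 16.6, 21.2, 23.8 and 76.9 CPM (log2 1.31 ± 0.447, edgeR adjusted p = 0.229), so that KO 2 carried most of its difference. Cyp51, the lanosterol demethylase, stood at 6.63, 10.2, 16.3 and 22.4 CPM (log2 1.08 ± 0.498, edgeR adjusted p = 0.440). Sc5d, a sterol desaturase of the late pathway, stood at 8.29, 16.1, 21.3 and 27.2 CPM (log2 0.85 ± 0.435, edgeR adjusted p = 0.515). Without KO 1, Hmgcs1 and Msmo1 passed (edgeR adjusted p = 0.0263 and 5.72e-05), and without Control 2, Msmo1 passed (edgeR adjusted p = 0.0362).

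Other members of the SREBP2 arm showed no such order or a small one. Pmvk, the phosphomevalonate kinase, stood at 23.2, 15.3, 5.01 and 19.2 CPM, the 1 tested target with a negative log2 change (-0.68 ± 0.551, edgeR adjusted p = 0.740). That sign rests on KO 1, since without it the change was 0.071. Ebp, a sterol isomerase, stood at 28.2, 51.7, 45 and 52.9 CPM, with overlapping groups. Insig1, both a target and a brake of SREBP2, stood at 79.6, 72.9, 90.1 and 91.3 CPM (log2 0.25 ± 0.236, edgeR adjusted p = 0.784). Srebf2 itself had 43.1, 54.3, 52.6 and 46.4 CPM, and Srebf1 had 19.9, 16.1, 20.02 and 17.6 CPM, so neither factor's transcript separated the groups.

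The 20 SREBP2 targets as a list were also summed, which needs no filter. A sum is led by its genes of most UMIs, which are those that passed the filter, so it is no separate support. The 18 synthesis enzymes summed to 151, 187, 247 and 354 CPM, and with Insig1 and Stard4 the 20 targets summed to 242, 270, 357 and 458 CPM. Both KO libraries lay above both Control libraries in each sum. Each sum also rose in the order of the gate's median UMIs per cell (1401, 2099, 3166.5 and 4899). The part of depth in them was not tested. Of the 20, 9 were tested, 1 was called higher and 0 lower, and their median log2 change was 1.08, against -0.011 over all genes tested. In 7 of the 9 both KO libraries lay above both Control libraries, against 20.4% of all genes. A gene of low counts passes the filter more readily through the group in which it is high, so this median and count are not support. With no filter the median over all 20 was 0.53. The untested ones were Sqle, Fdft1, Lss, Dhcr7, Nsdhl, Hsd17b7, Mvd, Mvk, Acat2, Tm7sf2 and Stard4, each with at most 16 UMIs in a library.

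**Figure D1:**
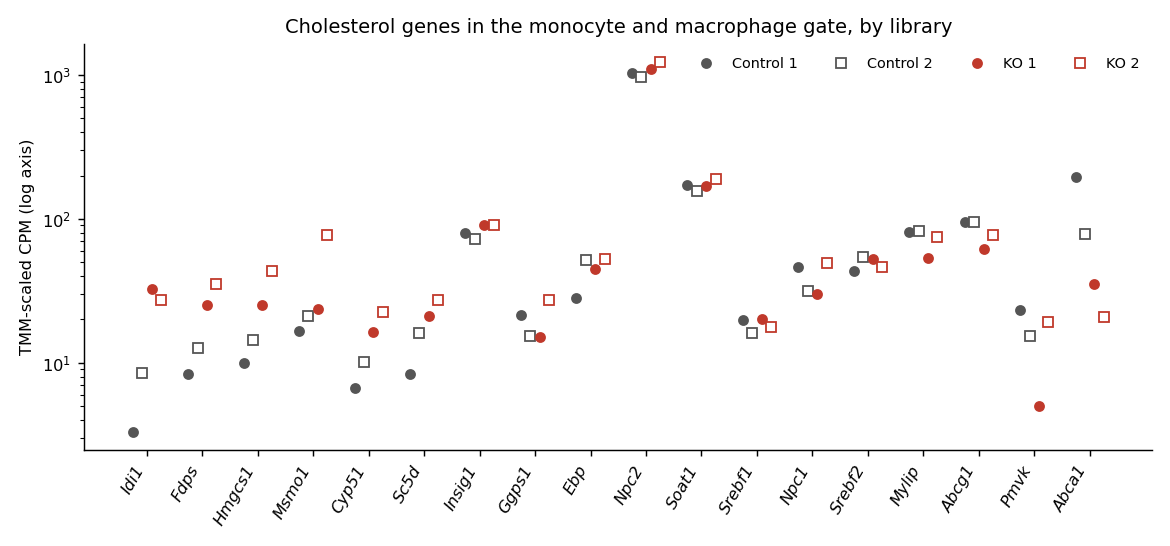
The 18 tested cholesterol genes in the monocyte and macrophage gate, ordered by log2 change from left to right, with TMM-scaled CPM on a log axis and 1 point per library (grey Control, red KO, filled first and open second library). Idi1, Fdps, Hmgcs1 and Cyp51 have both KO points above both Control points, and Abca1 at the right end has both below.

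Abca1 (ENSMUSG00000015243, chromosome 4, 53030787 to 53159895, GRCm38) hands cholesterol and phospholipid to lipid-poor apolipoprotein A-I. In the monocyte and macrophage gate it stood at 194, 78.0, 35.0 and 20.8 CPM, from 117, 92, 28 and 13 UMIs. The groups did not overlap, and Control 1 stood well above Control 2. The log2 change was -2.19 ± 0.397 (SE, edgeR adjusted p = 0.00666), and it passed without each library in turn. It did not pass with DESeq2 (log2 -2.27, adjusted p = 0.212) or with 3 markers per gate (log2 -2.54, edgeR adjusted p = 0.0641).

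The other LXR efflux genes differed less. Abcg1, which exports cholesterol to mature lipoprotein particles, stood at 94.5, 94.9, 61.3 and 76.9 CPM (log2 -0.47 ± 0.243, edgeR adjusted p = 0.527). Mylip stood at 81.2, 82.2, 53.8 and 75.3 CPM (log2 -0.36 ± 0.256, edgeR adjusted p = 0.679). Both KO libraries lay below both Control libraries in 3 of 3 genes, against 20.6% of all genes tested, and the median log2 change of the 3 was -0.47. Their sum was 370, 255, 150 and 173 CPM. The sum of the efflux genes was thus lower in KO while the sum of the SREBP2 targets was higher, and the Abca1 share of the first was 194 of 370 CPM in Control 1 and 20.8 of 173 CPM in KO 2.

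The makeup of the gate differed between the groups in the same direction as Abca1. Macrophages with at least 2 of the 3 C1q chains were 31.0, 14.8, 4.59 and 3.33% of its cells and 38.0, 17.6, 5.66 and 2.05% of its UMIs. They held 70.1, 60.9, 39.3 and 0% of its Abca1 UMIs. The 5 Kupffer cell markers had summed plain levels of 36.7, 44.8, 1.26 and 0 CPM in the gate. The 8 stromal markers stood at 27.1, 4.15, 0 and 0 CPM, and the 10 hepatocyte markers at 28.7, 23.2, 21.4 and 11.9 CPM with 4 of the 10 (Cps1, Cyp2e1, Cyp3a11 and Pck1) at 0.

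Within the C1q macrophages Abca1 had 82, 56, 11 and 0 UMIs, or plain levels of 344, 264, 245 and 0 CPM. The exact 95% Poisson intervals, which cover counting error only, were 274 to 427, 199.3 to 343 and 122 to 438 CPM in the first 3 libraries, which overlap. The 0 in KO 2 comes from 4 cells and allows up to 247 CPM, the level of 3 counts. That limit is 1-sided and lies below the upper end of a 2-sided interval like those of the other libraries. In classical monocytes (Chil3, F13a1, Ccr2 and Ly6c2 among the markers) Abca1 was at plain levels of 33.0, 25, 23.8 and 22.7 CPM, with a log2 change of -0.34 ± 0.483 (edgeR adjusted p = 0.894). In patrolling monocytes it had 11, 8, 1 and 1 UMIs, or 216, 78.2, 26.8 and 52.7 CPM. With the C1q macrophages left out of the gate, Abca1 stood at 93.2, 37.0, 22.6 and 21.4 CPM and was not called (log2 -1.39 ± 0.391, edgeR adjusted p = 0.0595). Abca1 was therefore several times more abundant in C1q macrophages than in classical monocytes in Control 1, Control 2 and KO 1, and a lower level within either cell type was not shown at this depth.

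**Figure D2:**
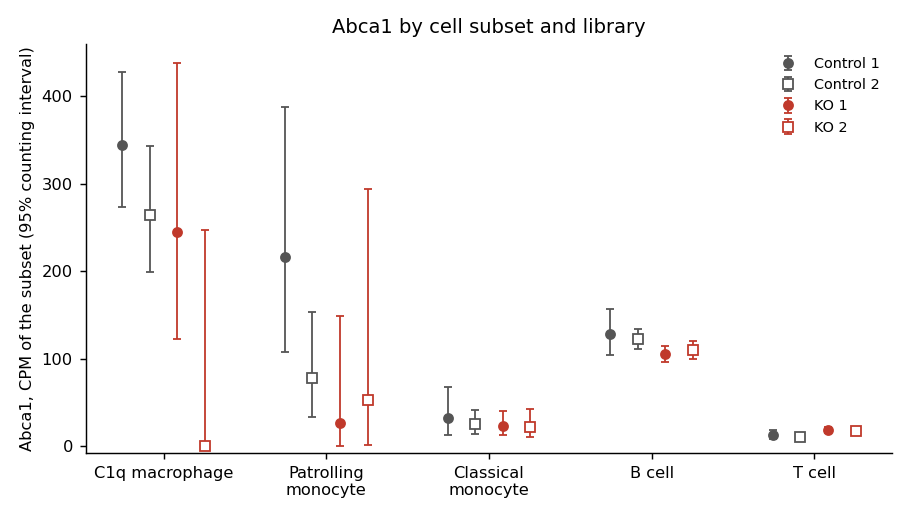
Abca1 in 3 subsets of the monocyte and macrophage gate and in B and T cells, as plain CPM of the subset with exact 95% Poisson intervals (counting error only), 1 point per library. The C1q macrophages stand at 344, 264 and 245 CPM in Control 1, Control 2 and KO 1, far above the classical monocytes, and the bar of the 0 in KO 2 ends at the limit of 3 counts, 247 CPM.

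Leaving out the C1q macrophages changed the SREBP2 targets gene by gene. Idi1 had no UMI in the C1q macrophages of any library. Of the Hmgcs1 UMIs of the gate, 5 of 6 in Control 1, 5 of 17 in Control 2 and 0 of 20 and 0 of 27 in KO lay in them. Without those cells, 2 members were called higher, Idi1 at 5.32, 10.3, 34.5 and 28.0 CPM (log2 1.81 ± 0.475, edgeR adjusted p = 0.0376) and Hmgcs1 at 2.66, 12.3, 26.5 and 44.4 CPM (log2 1.86 ± 0.475, edgeR adjusted p = 0.0331). Hmgcs1 was not called with these cells included, and its Control 1 value without them rests on 1 UMI. Both genes were low in Control, so they pass the filter on low counts more readily through KO. The 2 calls are therefore not separate support. Of 6242 genes tested there, 0.352% were called higher. The 18 enzymes summed to 144, 186, 249 and 360 CPM, close to the values with the C1q macrophages included. Abca1, Abcg1 and Mylip together summed to 285, 226, 138 and 176 CPM without the C1q macrophages. In classical monocytes alone these 3 summed to 204, 185, 147 and 153 CPM, and 0 of them were called in either set of cells.

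In the classical monocytes alone (104, 137, 145 and 72 cells), the 18 enzymes summed to 125, 196, 227 and 346 CPM. Idi1 stood at 4.98, 5.54, 26.7 and 28.2 CPM (log2 2.29 ± 0.713, edgeR adjusted p = 0.183) and Hmgcs1 at 4.98, 9.24, 26.7 and 37.6 CPM (log2 1.93 ± 0.622, edgeR adjusted p = 0.217). For both genes the 2 Control libraries lay below both KO libraries, as in 20.5% of all genes, on 1 to 16 UMIs each. Both were low in Control, so they pass the filter on low counts more readily through KO. This order is therefore not support. Of 5098 genes tested 0.412% were called, and 0 members were among them. At an unadjusted p below 0.05, 8.93% of all genes passed. Median UMIs per classical monocyte were 1845.5, 3580, 3825 and 5687, so depth rose along with these sums, and its part in them was not tested.

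Storage and lysosomal genes were not called in this gate. Npc2, the soluble lysosomal sterol carrier, stood at 1039.5, 976, 1096 and 1222 CPM (log2 0.20 ± 0.200, edgeR adjusted p = 0.814). Its KO libraries both lay above both Control libraries, as in 20.4% of all genes tested. Npc1, the membrane partner of Npc2, stood at 46.4, 31.4, 30.03 and 49.7 CPM (log2 0.056). Soat1, which makes cholesteryl esters for storage, stood at 172, 155, 169 and 189 CPM (log2 0.12). Ggps1 stood at 21.6, 15.3, 15 and 27.2 CPM (log2 0.21). Gpr155, Scap and Insig2 had too few UMIs to test.

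**Figure D3:**
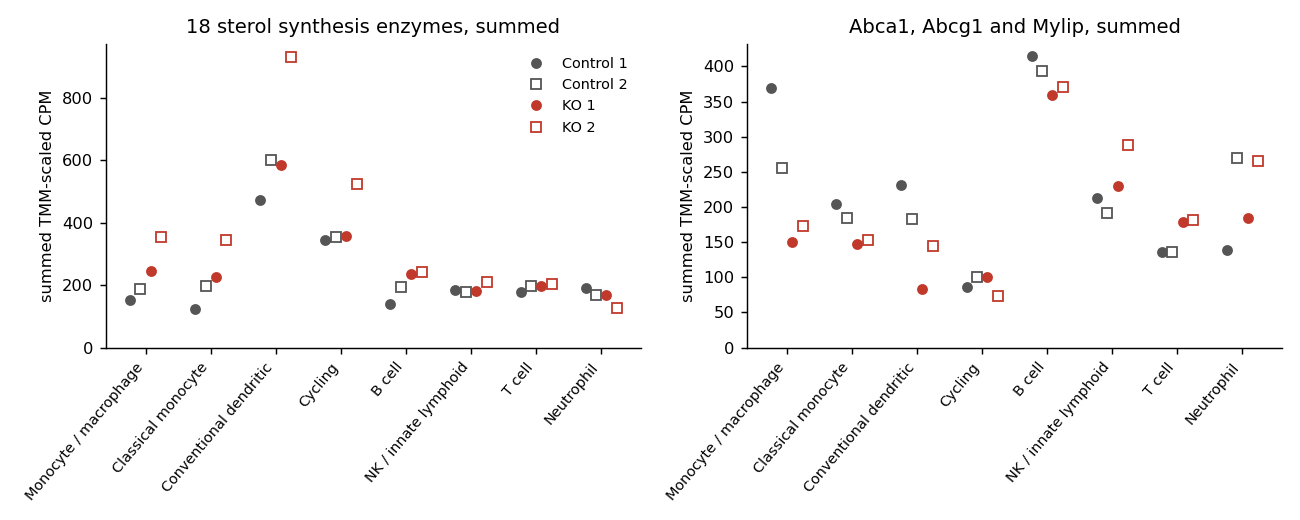
Summed TMM-scaled CPM of the 18 sterol synthesis enzymes (left) and of Abca1, Abcg1 and Mylip (right) by gate, with 1 point per library and both axes starting at 0. In the monocyte and macrophage gate the enzymes run from 151 and 187 in Control to 247 and 354 in KO, while the efflux genes run from 370 and 255 to 150 and 173.

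In B cells the lysosomal cholesterol sensor Gpr155 rose and no efflux gene was called. Gpr155 (ENSMUSG00000041762, chromosome 2, 73341506 to 73386572, GRCm38) stood at 10.6, 9.84, 23.0 and 25.5 CPM, a log2 change of 1.27 ± 0.235 (SE, edgeR adjusted p = 0.0436). The groups were far apart compared with the gap within each. It was the 1 call among 32 tested members, against 0.0598% of 10027 genes called higher. The call was lost without Control 2 (log2 1.19, edgeR adjusted p = 0.275), with relative log expression scaling (log2 1.27, adjusted p = 0.0589), with at least 1000 UMIs per cell (log2 1.24, adjusted p = 0.111) and with at most 10% mitochondrial UMIs (log2 1.24, adjusted p = 0.0905).

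The SREBP2 targets of B cells, all 20 of which were tested, had a median log2 change of 0.42, against -0.0053 over all genes. Both KO libraries lay above both Control libraries in 12 and below in 1, against 22.1% and 21.3% of all genes. Hmgcs1 stood at 13.3, 20.5, 33.7 and 36.8 CPM (log2 0.91 ± 0.215, edgeR adjusted p = 0.106) and Idi1 at 6.65, 15.2, 24.3 and 21.7 CPM (log2 0.80 ± 0.257, edgeR adjusted p = 0.277). Srebf2 stood at 70.5, 90.8, 128 and 110 CPM (log2 0.50 ± 0.148, edgeR adjusted p = 0.213). For these 3 genes the groups did not overlap, and Control 1, the shallowest library, was the lowest. Without KO 1 Hmgcs1 passed too (edgeR adjusted p = 0.0346). Abca1 stood at 133, 129, 102 and 104 CPM (log2 -0.34 ± 0.125, edgeR adjusted p = 0.339) and Abcg1 at 89.1, 91.9, 73.1 and 72.1 CPM (log2 -0.33 ± 0.129, edgeR adjusted p = 0.377). Neither passed, although the replicates of both lay within a few CPM of each other. Mylip stood at 193, 173, 184 and 194 CPM, with overlapping groups.

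In T cells Mylip rose, opposite in sign to its value in the monocyte and macrophage gate. Mylip (ENSMUSG00000038175, chromosome 13, 45389742 to 45412022, GRCm38) stood at 54.8, 57.5, 85.5 and 89.6 CPM, a log2 change of 0.64 ± 0.131 (SE, edgeR adjusted p = 0.0411). It was the 1 call among 32 tested members, against 0.518% of 11001 genes called higher. The call was lost without KO 1 (adjusted p = 0.166) or KO 2 (adjusted p = 0.392), with DESeq2 (adjusted p = 0.12), with 3 markers per gate (edgeR adjusted p = 0.116) and with at most 10% mitochondrial UMIs (edgeR adjusted p = 0.0524), at log2 values of 0.51 to 0.69. Abca1 stood at 12.5, 11.4, 18.5 and 17.5 CPM (log2 0.61 ± 0.189, edgeR adjusted p = 0.158) and Abcg1 at 68.1, 66.4, 73.9 and 74.1 CPM (log2 0.14 ± 0.128, edgeR adjusted p = 0.666). The 3 efflux genes summed to 135, 135, 178 and 181 CPM.

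The synthesis enzymes of T cells were level, with sums of 177, 198, 198 and 203 CPM and a median log2 change of 0.13 over the 20 SREBP2 targets. Both KO libraries lay above both Control libraries in 7 and below in 4, against 23.6% and 23.7% of all genes. Hmgcs1 stood at 17.6, 18.9, 26.4 and 28.1 CPM (log2 0.56 ± 0.157, edgeR adjusted p = 0.125) and Idi1 at 8.36, 10.9, 14.4 and 15.9 CPM (log2 0.59 ± 0.216, edgeR adjusted p = 0.221). Ebp went the other way, at 31.8, 38.6, 20.9 and 28.1 CPM (log2 -0.55 ± 0.179, edgeR adjusted p = 0.179), and passed as lower without Control 1 (edgeR adjusted p = 0.0106). Without Control 2, Npc1 and Scap passed as higher beside Mylip (edgeR adjusted p = 0.0222 and 0.00659).

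Natural killer and innate lymphoid cells had 0 calls among 19 tested members, where 1.34% of 7441 genes were called and 12.9% passed at an unadjusted p below 0.05. The closest was Stard4, a carrier of sterol between membranes, at 17, 7.41, 36.9 and 32.6 CPM (log2 1.78 ± 0.461, edgeR adjusted p = 0.0579), which passed without Control 1 (edgeR adjusted p = 0.00607). Insig1 stood at 12.7, 17.8, 34.9 and 38.5 CPM (log2 1.16 ± 0.385, edgeR adjusted p = 0.165), and Idi1 at 4.25, 5.93, 19.9 and 15.6 CPM (log2 1.65 ± 0.607, edgeR adjusted p = 0.225). In these 3 genes both KO libraries lay above both Control libraries, as in 21.9% of all genes, but the groups overlapped in the sum of the 18 enzymes, at 183, 176, 182 and 210 CPM. The 3 genes were chosen after their values were seen. Idi1 and Stard4, low in Control, pass the filter on low counts more readily through KO. This order is therefore not support. Mylip stood at 110, 101, 142 and 157.1 CPM (log2 0.53 ± 0.197, edgeR adjusted p = 0.231), both KO libraries above both Control libraries, as in T cells.

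The smaller gates gave 0 member calls with edgeR. In conventional dendritic cells (91, 90, 26 and 23 cells), 8 members were tested, 0 of 1931 genes were called and 12.3% passed at an unadjusted p below 0.05. Hmgcs1 stood there at 59.0, 88.1, 100.2 and 263 CPM (log2 1.32 ± 0.479, edgeR adjusted p = 0.325), and KO 2 stood apart. In cycling cells 13 members were tested and 0.0238% of 4196 genes were called, with 8.89% at an unadjusted p below 0.05. In neutrophils the 2 tested members, Abcg1 and Soat1, had log2 changes of 0.12 and 0.34, where 0 of 1435 genes were called and 6.13% passed at an unadjusted p below 0.05.

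**Figure D4:**
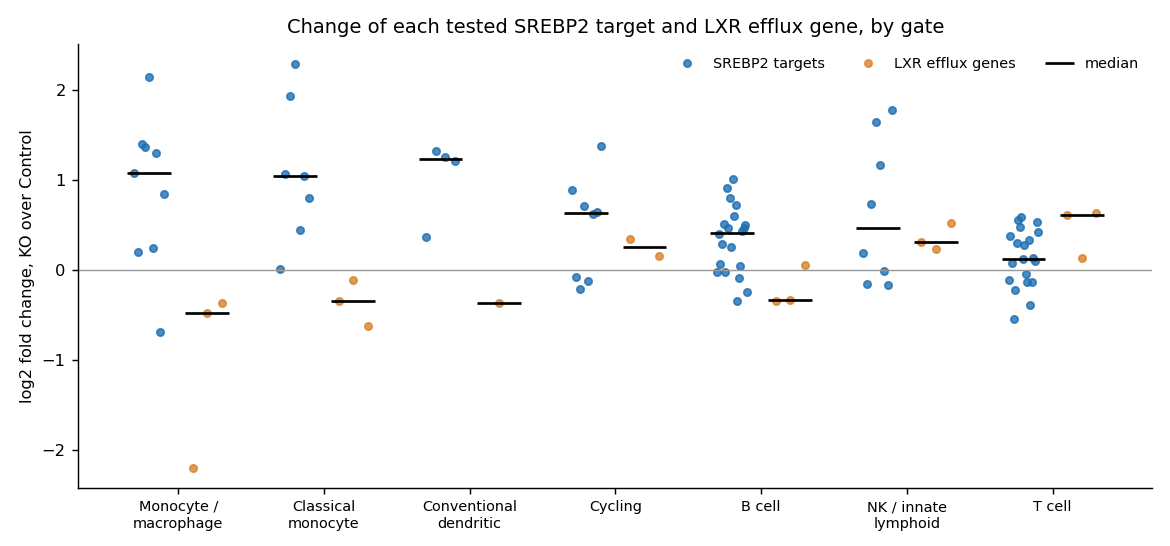
Log2 fold change, KO over Control, of each tested SREBP2 target (blue) and LXR efflux gene (orange) in 7 cell groups, with the median as a black bar (the classical monocytes are part of the monocyte and macrophage gate). In the monocyte and macrophage gate the orange median is -0.47 and the blue one 1.08, from the 9 of 20 targets that passed the count filter (0.53 with no filter), while in T cells, where all 20 passed, the blue median is 0.13 and the orange one 0.61.

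The change in Abca1 differed between cell types by a test of the difference itself. In 1 fit over the 7 gates, its change in the monocyte and macrophage gate minus that in T cells was -2.61 ± 0.444 on the log2 scale (edgeR adjusted p = 0.00589), where 0.334% of 8383 genes were called. Both gates come from the same 4 libraries. No other member passed in this contrast, and Mylip had -0.99 ± 0.268 (edgeR adjusted p = 0.115). The Abca1 difference did not pass without KO 1 (-3.07, edgeR adjusted p = 0.0821) or without KO 2 (-2.39, edgeR adjusted p = 0.250). Against B cells it was -1.65 ± 0.402 (edgeR adjusted p = 0.128, with 0.0596% of genes called), and against natural killer and innate lymphoid cells -2.35 ± 0.600 (edgeR adjusted p = 0.156, with 0.155% called). Abca1 had 8, 17 and 20 UMIs in all in conventional dendritic cells, cycling cells and neutrophils. Its differences against these were 5.59 ± 7.54, 5.74 ± 3.76 and -0.63 ± 1.28 (edgeR adjusted p = 0.894, 0.601 and 0.996), with errors too large to read a direction. The difference for Idi1, monocyte and macrophage gate minus T cells, was 1.57 ± 0.604 (edgeR adjusted p = 0.396), so a larger change in the myeloid gate was not shown for the sterol arm. The share of C1q macrophages named above also differed between the groups. The Abca1 difference between gates was not fitted without those cells, so their part in it was not tested.

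Over all kept cells together, 3 members rose, against 1.43% of 14327 genes called higher. Gpr155 stood at 8.09, 8.83, 15.6 and 14.7 CPM (log2 0.84 ± 0.166, edgeR adjusted p = 0.0405). Stard4 stood at 13.9, 14.3, 25 and 21.2 CPM (log2 0.71 ± 0.153, edgeR adjusted p = 0.0474). Hmgcs1 stood at 23.9, 23.1, 34.6 and 36.3 CPM (log2 0.59 ± 0.122, edgeR adjusted p = 0.0431). In each the groups were clearly separate and the replicates close. Abca1 did not separate them, at 62.8, 46.2, 50.03 and 44.0 CPM (log2 -0.21 ± 0.179, edgeR adjusted p = 0.490). This sum mixes cell types whose shares differ between the libraries, such as the B cells, at 606, 1761, 2535 and 1591 cells, and a change in level cannot be told apart from a change in mix here.

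Apart from genotype, the levels of some of the genes differed between cell types. Levels were compared between gates over the 4 libraries, for the 22 members with enough counts, and each value is a level of 1 gene in several gates. Npc2 ran from 955 to 1292 plain CPM in the monocyte and macrophage gate, from 548 to 863 in conventional dendritic cells, and from 101 to 115 in B cells. It was higher in the monocyte and macrophage gate than in each of the other 6 gates (log2 0.86 ± 0.207 over conventional dendritic cells, edgeR adjusted p = 0.00238). Soat1 ran from 152 to 200 plain CPM in the monocyte and macrophage gate and from 96.1 to 164 in neutrophils, 2 ranges that overlap. It was higher in the monocyte and macrophage gate than in T cells by 2.33 ± 0.140 (log2, edgeR adjusted p = 5.27e-17). Against T cells, 7 of the 22 members were higher and 2 lower in that gate, where 30.4% and 31.3% of 8383 genes were. The higher count is close to the share of all genes, so the members as a set showed no excess there.

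Sterol synthesis genes were higher in conventional dendritic cells than in the monocyte and macrophage gate. Of the 22 members, 8 were lower in the monocyte and macrophage gate than in them and 3 were higher, where 6.14% and 11.3% of genes were. The 8 were Sqle, Idi1, Hmgcs1, Fdps, Pmvk, Cyp51, Stard4 and Srebf2. Idi1 ran from 33.0 to 297 plain CPM in conventional dendritic cells and from 3.19 to 32.7 in the monocyte and macrophage gate (log2 -2.46 ± 0.391, edgeR adjusted p = 9.1e-06). Sqle, the squalene epoxidase, ran from 16.5 to 56.6 and from 3.32 to 10.2 plain CPM in the same gates (log2 -2.50 ± 0.547, edgeR adjusted p = 0.000942). For both genes the ranges did not overlap. Plasmacytoid dendritic cells, with 39, 29, 8 and 12 cells, were not among the 7 gates fitted. Their Idi1 ran from 64.4 to 199.2 plain CPM and their Hmgcs1 from 64.4 to 512, ranges that overlap those of conventional dendritic cells (57.9 to 283 for Hmgcs1). The 3 higher ones were Abca1, Soat1 and Npc2. With 3 markers per gate or without Control 2, 5 members were lower.

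Cycling cells, gated on proliferation genes, were compared with T cells after the levels had been seen. A cell was placed in this class whether or not it also passed a single gate of another cell type, so the class mixes lineages. Proliferation and lineage mix cannot be told apart in this contrast. In them 9 members were higher (Fdps, Cyp51, Idi1, Sqle, Soat1, Pmvk, Ebp, Sc5d and Stard4) and 3 were lower (Abcg1, Mylip and Ggps1), where 23% and 23.6% of genes were. Fdps ran from 28.9 to 67.4 plain CPM in cycling cells and from 9.91 to 17.3 in T cells (log2 1.67 ± 0.290, edgeR adjusted p = 1.19e-05). Abcg1 ran from 25.9 to 46.9 in cycling cells and from 63.2 to 75.4 in T cells (log2 -1.27 ± 0.218, edgeR adjusted p = 9.48e-06). With relative log expression scaling, which moved the median of all genes by 0.21 in this contrast, Hmgcs1 and Msmo1 were called as well and Ggps1 was not, and no call changed sign. Cycling cells also had more UMIs per cell, with medians of 2823, 9023, 4292 and 8086.

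The efflux genes had another order. B cells held 51.2% of the 3055 Abca1 UMIs of the kept cells, at 105 to 129 plain CPM, and over the 4 libraries Abca1 was lower in the monocyte and macrophage gate than in them (log2 -0.74 ± 0.287, edgeR adjusted p = 0.0255). Control 1 went the other way, with Abca1 at 187 plain CPM in the monocyte and macrophage gate and 129 in B cells. In Control 2, KO 1 and KO 2 it was at 76.3, 35.2 and 22.0 against 122, 105 and 110 plain CPM, so this value averages over groups in which Abca1 differed. Mylip ran from 163 to 206 plain CPM in B cells, from 95.4 to 169 in natural killer and innate lymphoid cells, and from 54.1 to 80.5 in the monocyte and macrophage gate (log2 -1.38 ± 0.187 against B cells, edgeR adjusted p = 6.02e-08). Against B cells 7 members were higher and 7 lower in the monocyte and macrophage gate, close to the shares of all genes, 30.7% and 32%. Abca1 was higher in the monocyte and macrophage gate than in T cells by 2.14 ± 0.324 (log2, edgeR adjusted p = 4.75e-07), an average of the same kind.

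**Figure D5:**
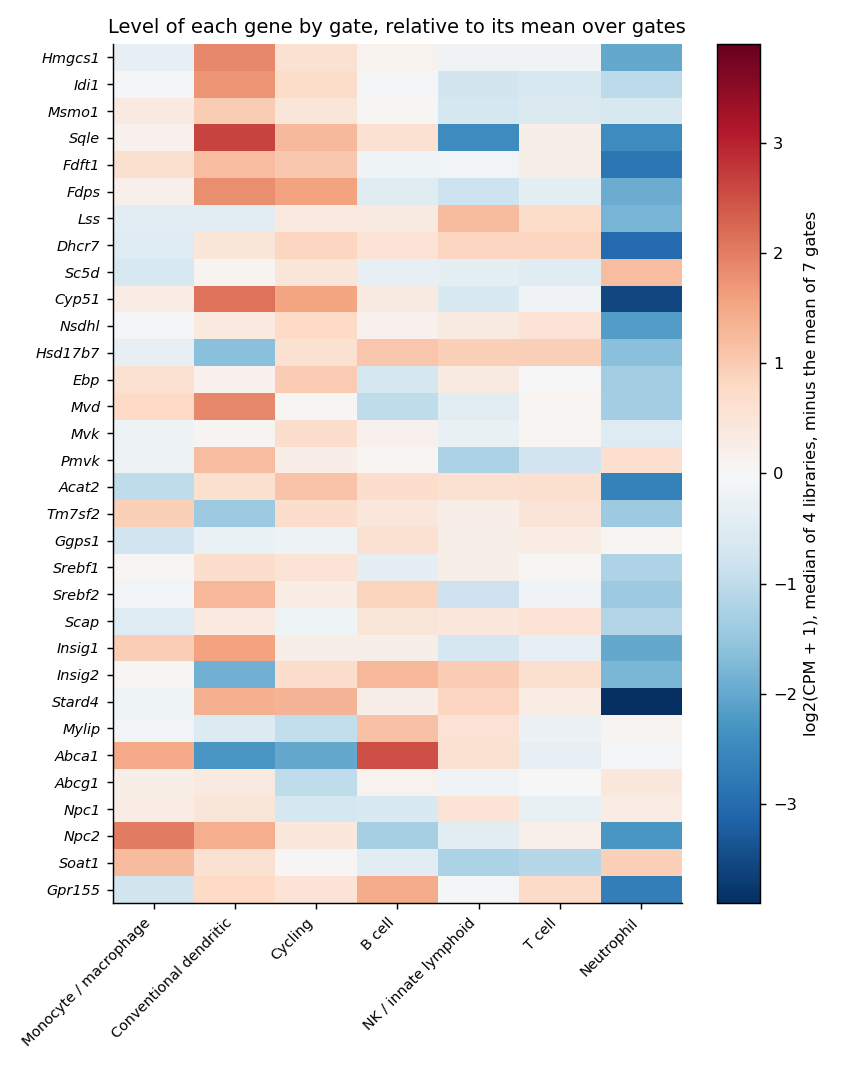
Level of each of the 32 genes in the 7 gates, as the log2 of plain CPM plus 1 (median of 4 libraries) minus the gene's mean over the gates, so colours compare gates within a row and not genes. Conventional dendritic cells are red for Idi1, Hmgcs1, Fdps and Sqle, B cells for Mylip and Abca1, and the monocyte and macrophage gate for Npc2 and Soat1.

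Genes of the same pathways that are not among the 32 were read in the monocyte and macrophage gate, and 0 of them were called in either direction. Of 11 genes of fatty acid synthesis driven by SREBP1, 4 were tested and had a median log2 change of -0.071. Of 7 LXR and RXR receptors and other LXR targets, 6 were tested, with a median of -0.030. Among them Nr1h3, which encodes LXR alpha, stood at 36.5, 28.0, 15 and 19.2 CPM (log2 -0.89 ± 0.377, edgeR adjusted p = 0.390). Its KO libraries both lay below both Control libraries, as in 20.6% of all genes tested. It was the 1 gene of the 6 with that order. Of 12 genes of sterol transfer, ester hydrolysis and oxysterols, 9 were tested, with a median of 0.15. The 5 SREBP proteases and sterol-regulated ligases had 4 tested genes and a median of 0.13, and the 6 genes of prenyl transfer and dolichol had 4 and a median of 0.18.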

How the data were processed

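The deposited values are raw counts of UMIs for each gene in each barcode. The submitters' processing notes name Cell Ranger 3.1.0 and the mm10 build, and no deposited barcode had under 500 UMIs. Cells with at least 500 UMIs, 250 genes and at most 25% mitochondrial UMIs were kept and gated by markers (2 for immune gates, 3 for cycling, stromal and endothelial cells, 6 for hepatocytes). Cells of several gates were left out in place of a doublet caller, and cells of no gate entered only the sum over all kept cells. A cycling cell could also pass a single other gate and was then counted as cycling alone. Counts were summed per library and gate, and gates with at least 20 cells in every library were fitted over all genes with edgeR 4.0.16 (filterByExpr, TMM, glmQLFit, glmQLFTest, Benjamini-Hochberg), with no covariate. Gates were compared with each other, and their KO effects with each other, in fits with the library as a term. The pipeline was tested on simulated data. R 4.3.3 and Python 3.11.15 were used.

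The members and gene lists were chosen with earlier results of these data known. By rule, values in every library are given for members called in any gate and for the 8 with the largest change in the monocyte and macrophage gate; other members with values were chosen after these were seen. Alternatives were DESeq2 1.42.0, relative log expression scaling, no count filter, 1000 UMIs per cell, 10% mitochondrial UMIs, 3 markers per gate, no C1q macrophages, a replicate block and each library left out. Gene positions are from GENCODE M21 (GRCm38) and promoters from RefSeq.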

Additional observations from a re-analysis of the deposited data

Results flagged for a closer look

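The change of Abca1, KO over Control, differed between cell types: in the monocyte and macrophage gate minus T cells it was -2.61 on the log2 scale (edgeR quasi-likelihood, Benjamini-Hochberg adjusted p = 0.00589). Abca1 was lower in both KO libraries than in both Control libraries in the first gate and higher in both in T cells. It drew attention because the difference itself passed a test, in 1 of the 6 contrasts between gates. The alternatives gave values from -3.25 to -2.09, and the difference did not pass without KO 1 or without KO 2. C1q macrophages, the subset with the most Abca1, made up 31.0 and 14.8% of the gate in Control and 4.59 and 3.33% in KO. The difference between gates was not fitted without them, so their part in it was not tested.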

How the results depend on the processing

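The calls rest on 2 libraries per group. None of the calls in a gate (Idi1, Abca1, Gpr155 and Mylip) passed under every setting, since DESeq2 called 0 members in any gate. These 4 genes kept their sign in every setting that gave them a value. The causes were not tested.

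Members called higher in KO, 1 each in T cells, B cells and the monocyte and macrophage gate, became 0, 0 and 0 with DESeq2. With no count filter, which tests more genes, they were 1, 2 and 4, with 1 in natural killer and innate lymphoid cells. At 1000 UMIs per cell and with relative log expression scaling the B cell count was 0. With at most 10% mitochondrial UMIs it was 0 in T and B cells. With 3 markers per gate it was 0 in T cells and in the monocyte and macrophage gate. Without C1q macrophages it was 2 in the monocyte and macrophage gate. Members lower in the monocyte and macrophage gate went from 1 to 0 with DESeq2, 3 markers or no C1q macrophages, and in cycling cells from 0 to 1 with no filter. Leaving out 1 library, which leaves 1 in that group, changed which members passed in T cells, B cells and the monocyte and macrophage gate. It did so in natural killer and innate lymphoid cells too.

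The median SREBP2 target in the monocyte and macrophage gate was 0.53 with no filter and 0.86 to 1.49 with 1 library left out. It turned to -0.0197 in conventional dendritic cells with no filter. With 1 library left out, the median of the LXR efflux genes ran from -0.22 to 0.75 in neutrophils (-0.074 without Control 1, -0.22 without KO 2) and from -0.17 to 0.80 in cycling cells (-0.053 without Control 1, -0.17 without KO 1). Pmvk in the monocyte and macrophage gate ran from -1.85 (without KO 2) to 0.0713 (without KO 1).

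Between gates, relative log expression scaling moved the median of all genes by -0.32 against cycling cells, -0.17 against conventional dendritic cells, -0.11 against T cells and -0.10 against natural killer and innate lymphoid cells, and no member call changed sign. Members lower in the monocyte and macrophage gate were then 4 against T cells, 4 against natural killer and innate lymphoid cells, 3 against neutrophils and 10 against cycling cells. With no filter they were 7 against T cells, 11 against B cells and 5 against natural killer and innate lymphoid cells, and with 3 markers 1 against the latter and 5 against conventional dendritic cells. Leaving out 1 library gave 1 to 4 lower against T cells, 4 to 9 against B cells, 1 to 4 against natural killer and innate lymphoid cells, 5 to 8 against conventional dendritic cells, 1 to 2 against neutrophils and 2 to 6 against cycling cells, and 4 to 7 higher against neutrophils. Members whose KO effect differed went from 1 to 0 against T cells with 1 library left out, from 0 to 1 against B cells and natural killer and innate lymphoid cells with no filter or 1 library left out, and from 0 to 1 against cycling cells with 3 markers.

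The labels give both groups numbers 1 and 2 without saying that they pair the libraries. Same-numbered libraries deviated together with correlations of -0.10 (neutrophils) to 0.18 (cycling cells), 0.06 over all kept cells. With the replicate block, the members called higher were 3 in T cells, 4 in B cells and 4 in the monocyte and macrophage gate, and 1 was lower in T cells. With the numbers crossed in neutrophils, a setting chosen after seeing the data, 0 of 2 tested members were called.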
